A study of Mus musculus with 20 samples.

Results

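Amino acids enter and leave mouse cells, and move between the cytosol and organelles, mainly through solute carriers of a few protein families. The genes described here are those whose symbols belong to the families Slc1, Slc3, Slc6, Slc7, Slc36, Slc38 and Slc43 followed by the letter a and a number, a rule that uses names only. It found 59 of the 21361 genes in the count table: 7 of Slc1, 2 of Slc3, 18 of Slc6, 14 of Slc7, 4 of Slc36, 11 of Slc38 and 3 of Slc43. Of these, 50 passed the filter on low counts and were tested, and 9 did not. Slc6a20a, which ends in a letter, lies outside the rule.

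Amino acid carriers differ in what drives them. Slc1, Slc6 and Slc38 members are mostly driven by sodium, Slc36 members by protons, and most Slc7 light chains exchange an amino acid outside the cell for one inside and need a heavy chain of the Slc3 family to reach the membrane. Several families also hold carriers of other molecules, such as creatine, taurine and neurotransmitters in Slc6, and some members sit on the lysosome, where amino acids are reported to mTORC1, the kinase complex that couples growth to nutrients. In mouse pluripotent cells, threonine, proline, glutamine and cystine supply are known to bear on self-renewal and on the passage from the naive to the formative state.

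The 20 libraries hold poly(A) RNA of mouse embryonic stem cells (ESCs), stem cell lines obtained from primordial germ cells (PGC-ESCs) and epiblast-like cells (EpiLCs), an in vitro model of the epiblast after implantation. The ESC Host group holds 4 wildtype lines derived from host embryos (strain label C57Bl6J), and the PGC-ESC DKO group 3 lines with a double knockout of Puma and Noxa (C57Bl6J). The C57Bl6J/129SvEvRoEp lines are ESC BaxKO (n = 2), a Bax heterozygous ESC line (ESC BaxHet, n = 1) and PGC-ESC BaxKO (n = 5), where BaxKO marks a knockout of the apoptosis gene Bax. The series' design text calls the ESC BaxKO lines previously derived and the ESC Host lines simultaneously derived, with no dates. An EGFP reporter transcript in the table was at 0 to 0.547 CPM in ESC Host and EpiLC Host, 3096 to 3432 in ESC BaxKO, 1704 in ESC BaxHet, 2946 to 3507 in PGC-ESC BaxKO, 8485 to 9722 in PGC-ESC DKO and 568 to 807 in EpiLC DKO. EpiLC Host libraries (n = 2) came from Host lines 3 and 4, and EpiLC DKO libraries (n = 3) from the 3 PGC-ESC DKO lines. The only culture text, given for every sample, is for ESCs on gelatin in N2B27 with LIF, the GSK3 inhibitor CHIR99021 and the MEK inhibitor PD0325901 (conversion to EpiLCs: not given in the sources used here). Each library is a separate line or a conversion of one, so p-values measure the spread between lines. Because lines rather than cultures are the replicates, spread between cultures of one line was not measured.

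Library totals ran from 14255399 to 33376660 counts. Bax was at 1.66 to 2.43 CPM (counts scaled by the library total) in the BaxKO groups, against 283 to 533 in ESC Host. Pmaip1, which encodes Noxa, was at 1.26 to 4.35 CPM in PGC-ESC DKO against 20.2 to 52.7 in ESC Host, and Bbc3, which encodes Puma, at 27.5 to 49.2 against 38.5 to 49.7. Bbc3 thus gave no check of that label, and whether its reads come from outside the deletion could not be read from the labels. The ribosomal precursor Rn45s was at 2044 to 5106 CPM in PGC-ESC BaxKO, 24395 to 45205 in PGC-ESC DKO and 17130 to 33234 in the EpiLC libraries, and it was low in ESC Host 1 and 2 and high in ESC Host 3 and 4. ESC Host 4 and PGC-ESC DKO 2 had the lowest summed CPM over the 59 transporter genes of their groups, 1569 and 1525, against ranges of 2489 to 2960 and 1833 to 2098 in the other libraries of those groups.

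Of the 59 genes, 43 had at least 1 promoter window in the RefSeq table for GRCm38.p6, which takes 250 bases before and 50 after each start site. The windows were searched on both strands for TGATGNAA, the form of the amino acid response element bound by ATF4 with its partners, and for CACGTG, the E-box bound by the lysosomal regulators of the TFEB family and by MYC. None of the windows printed held both strings. TGATGNAA was in 3.97% of all 32851 windows (4.51% of 27025 genes) and in 4 of the 43 transporter genes, Slc7a11, Slc7a7, Slc1a4 and Slc6a21. CACGTG was in 7.15% of all windows (8.09% of genes) and in 9 of the 43. Of the 15 genes with a window that rose in both EpiLC comparisons described below, 3 held TGATGNAA and 2 (Slc7a14 and Slc1a6) held CACGTG, and of the 5 that fell in both, 0 held TGATGNAA and 2 held CACGTG. A match describes letters in a window and is neither a binding site nor a cause.

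Promoter windows are shown for the 3 rising genes with TGATGNAA and the 2 falling genes with CACGTG, each 5′ to 3′ on the gene's strand, with matches in capitals and positions counted from the start site as 0. The window of Slc7a11 (chr3:50443564-50443863, minus strand) has matches starting at -66 and -47, that of Slc7a7 (chr14:54417895-54418194, minus strand) at -141 and -1, and that of Slc1a4 (chr11:20332664-20332963, minus strand) at -4. The window of the lysosomal carrier Slc36a1 (chr11:55204090-55204389, plus strand) has CACGTG at -31 and -3, and that of the lysosomal carrier Slc38a7 (chr8:95853442-95853741, minus strand) at -34.
Slc7a11: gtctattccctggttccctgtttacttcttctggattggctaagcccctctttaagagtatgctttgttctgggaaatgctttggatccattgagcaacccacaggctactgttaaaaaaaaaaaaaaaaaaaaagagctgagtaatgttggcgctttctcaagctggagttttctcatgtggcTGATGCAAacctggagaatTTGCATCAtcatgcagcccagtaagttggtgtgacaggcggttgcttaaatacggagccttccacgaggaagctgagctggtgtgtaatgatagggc
Slc7a7: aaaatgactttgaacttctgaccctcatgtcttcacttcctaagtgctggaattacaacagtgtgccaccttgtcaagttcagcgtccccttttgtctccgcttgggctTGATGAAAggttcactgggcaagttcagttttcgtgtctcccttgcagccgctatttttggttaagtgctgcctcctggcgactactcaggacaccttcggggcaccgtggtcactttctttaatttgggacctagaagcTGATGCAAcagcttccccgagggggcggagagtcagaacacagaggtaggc
Slc1a4: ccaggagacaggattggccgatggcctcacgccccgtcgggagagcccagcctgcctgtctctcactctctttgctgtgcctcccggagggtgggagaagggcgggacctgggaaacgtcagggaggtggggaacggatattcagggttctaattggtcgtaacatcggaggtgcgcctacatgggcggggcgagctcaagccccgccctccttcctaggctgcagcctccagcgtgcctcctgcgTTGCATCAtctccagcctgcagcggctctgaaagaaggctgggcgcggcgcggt
Slc36a1: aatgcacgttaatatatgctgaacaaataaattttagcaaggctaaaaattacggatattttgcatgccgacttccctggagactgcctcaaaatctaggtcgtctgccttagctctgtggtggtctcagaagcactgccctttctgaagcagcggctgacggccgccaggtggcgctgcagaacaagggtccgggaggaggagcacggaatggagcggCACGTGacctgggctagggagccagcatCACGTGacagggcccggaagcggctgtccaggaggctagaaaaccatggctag
Slc38a7: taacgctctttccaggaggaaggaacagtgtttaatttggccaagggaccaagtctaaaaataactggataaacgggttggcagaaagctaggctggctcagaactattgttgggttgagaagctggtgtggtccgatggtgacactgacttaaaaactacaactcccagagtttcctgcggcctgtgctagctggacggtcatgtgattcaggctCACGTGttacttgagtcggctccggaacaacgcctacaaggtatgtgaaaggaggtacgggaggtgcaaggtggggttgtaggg

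Levels were compared between genes as CPM per kilobase of merged exons. Over the 15 ESC and PGC-ESC libraries, Slc7a5, the LAT1 light chain that imports large neutral amino acids, was the most abundant at 84.8 ± 19.8 CPM per kilobase (SD, n = 15). It was followed by the creatine transporter Slc6a8 at 68.9 ± 30.7, the CD98 heavy chain Slc3a2 at 68.2 ± 10.1, the neutral amino acid exchanger Slc1a5 (ASCT2) at 52.4 ± 10.8 and the cationic amino acid carrier Slc7a3 at 46.3 ± 18.8. Neighbours in this order differed by less than 1 SD of either gene, except Slc3a2 and Slc1a5. In the 5 EpiLC libraries Slc7a5 stayed first at 144 ± 13.7, Slc3a2 followed at 97.2 ± 3.197, Slc7a3 next at 65.0 ± 6.84, then Slc1a5 at 52.1 ± 5.12, and Slc6a8 was at rank 13 with 8.94 ± 1.18. The Slc6 family made up 20.2 ± 5.34% of the length-scaled total of the 59 genes in ESC Host (n = 4) and 4.76 ± 0.161% in EpiLC Host (n = 2), and 18.0 ± 2.19% in PGC-ESC DKO and 4.77 ± 0.361% in EpiLC DKO (n = 3 each). ESC Host 3 and 4, the lines converted to EpiLCs, had Slc6 shares of 14.5% and 16.8%, below the 25.7% and 23.7% of ESC Host 1 and 2. The Slc7 share was 29.7 ± 2.46% and 46.8 ± 1.26% in the Host groups, and 29.7 ± 2.80% and 44.4 ± 1.85% in the DKO groups.

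**Figure D1:**
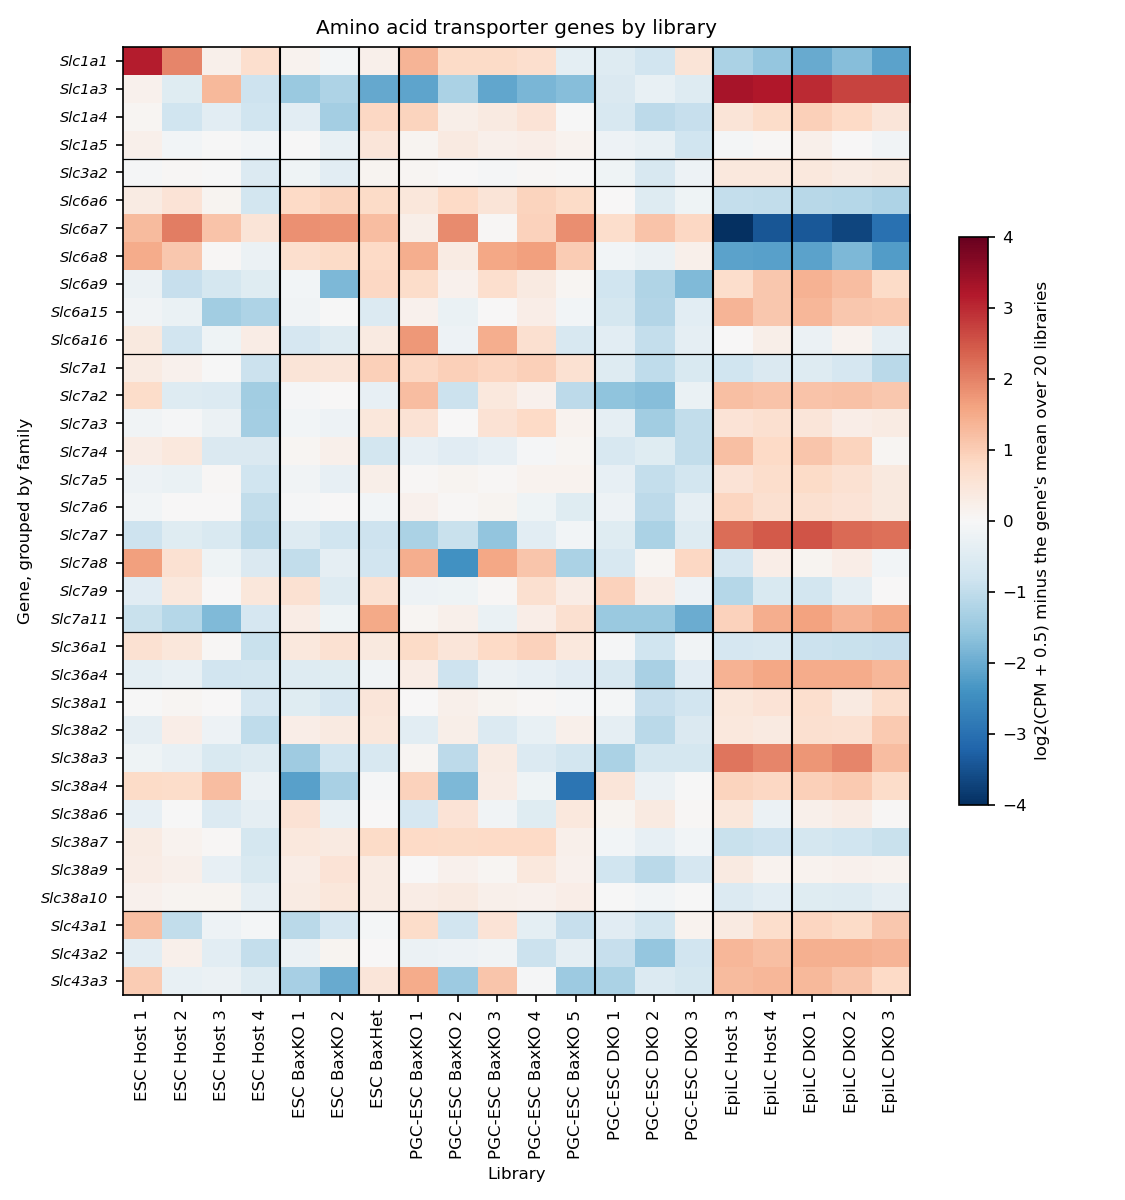
Each row is a transporter gene with a mean of at least 1 CPM over the 20 libraries (34 genes are drawn) and each column a library; colour gives log2(CPM + 0.5) minus the gene's mean over all 20 libraries. The 5 EpiLC columns lie apart from the other 15 in rows such as Slc7a7, Slc1a3 and Slc43a2 (high) and Slc6a7, Slc6a8 and Slc1a1 (low). In other rows, such as Slc1a5, Slc38a4 and Slc38a6, their values overlap with those of the other columns.

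The first question was how the transporters differ between EpiLCs and their parent groups, asked separately for the Host lines, of which EpiLCs came from lines 3 and 4, and the DKO lines. Of the 50 tested genes, 35 passed the test in EpiLC Host against ESC Host, 23 higher and 12 lower, where 44% of all 16363 tested genes passed, 22.4% higher and 21.7% lower. In EpiLC DKO against PGC-ESC DKO, 36 passed, 26 higher and 10 lower, where 47.6% of all genes passed, 25.1% higher and 22.5% lower. Genes were tested with edgeR by the quasi-likelihood F test, p-values were adjusted by Benjamini-Hochberg over all tested genes, and changes are log2 fold changes ± standard error, positive where EpiLCs were higher. The median change of the 50 genes was 0.52 in the Host lines against -0.03 for all genes, and 1.03 in the DKO lines against 0.01. The genes with 0 counts in a parent group, Slc6a11 and Slc6a2, lay above these medians also at the bounds given for them. Genes at low levels passed the filter only where some group was high enough, so these counts describe the genes that passed it and are not evidence about all 59.

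The transporters that rose in both sets of lines numbered 22, and those that fell in both numbered 9, where 19.8% of all tested genes rose in both and 18.3% fell in both. None passed in opposite directions. Of the 22 tested genes with a mean of at least 10 CPM over all libraries, 10 rose in both sets and 6 fell in both, where 14.1% and 24.3% of the 9103 genes at that level did. In bulk RNA, fewer cells of a type and less RNA per cell cannot be told apart.

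**Figure D2:**
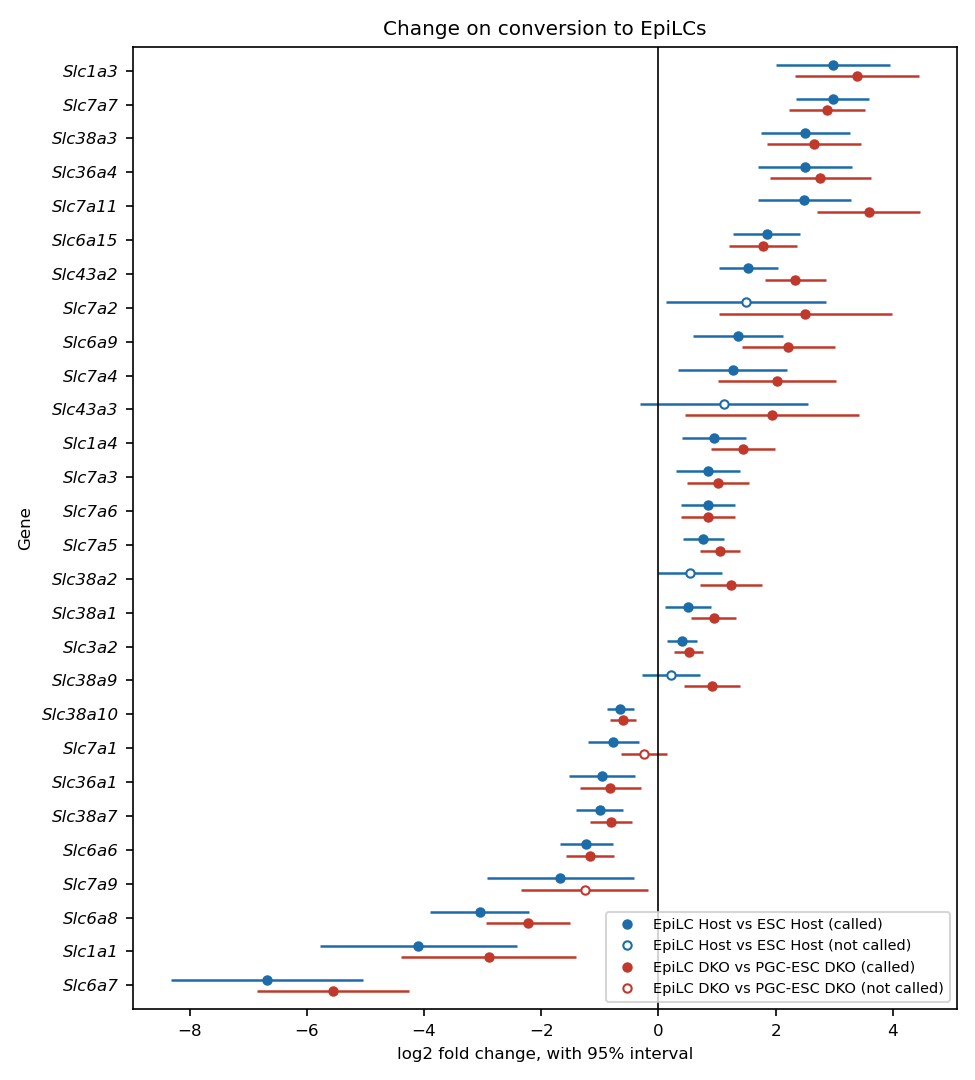
Log2 fold changes with 95% intervals for 28 transporter genes with a mean of at least 1 CPM that passed in EpiLC Host against ESC Host or in EpiLC DKO against PGC-ESC DKO; filled points passed the adjusted p threshold of 0.05 and open points did not. The 15 of them that rose in both comparisons and the 7 that fell in both lie on opposite sides of 0.

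Exchangers that work with the CD98 heavy chain were among the genes that rose. Slc7a7 (chromosome 14, 54369442 to 54417780 in GRCm38, as are all positions given here), the y+LAT1 light chain that exports cationic amino acids in exchange for neutral ones, was at 15.4, 19.9, 17.9 and 12.9 CPM in ESC Host, 133 and 153 in EpiLC Host, 19.8, 11.3 and 19.4 in PGC-ESC DKO and 161, 135 and 131 in EpiLC DKO. Each of the 5 EpiLC libraries exceeded every one of the other 15, whose highest value was 25.8 CPM. The change was 2.98 ± 0.30 in the Host lines (adjusted p 4.14e-07) and 2.88 ± 0.31 in the DKO lines (adjusted p 9.08e-07). About 7.0% of its exon length is shared with Oxa1l, whose reads could not be told apart because the strand setting of the counting was not stated. Its close relative Slc7a6 (y+LAT2) was at 30.7, 33.4, 33.4 and 16.3 CPM in ESC Host, 59.6 and 52 in EpiLC Host, 28.2, 15.8 and 25.6 in PGC-ESC DKO and 51.8, 48.4 and 43.3 in EpiLC DKO. It rose by 0.85 ± 0.22 in the Host lines (adjusted p 0.00475) and 0.85 ± 0.22 in the DKO lines (adjusted p 0.0038), with all EpiLC libraries above all others, and the Host call was lost without EpiLC Host 3.

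Slc7a11 (chromosome 3, 49892526 to 50443614), the xCT light chain that imports cystine in exchange for glutamate and so feeds glutathione synthesis, was at 1.55, 1.23, 0.618 and 1.89 CPM in ESC Host, 6.64 and 9.84 in EpiLC Host, 0.861, 0.842 and 0.451 in PGC-ESC DKO and 11.1, 9.17 and 10.3 in EpiLC DKO. The EpiLC libraries were above their parent groups, but the ESC BaxHet line, at 10.4 CPM, lay within the EpiLC range of 6.64 to 11.1. The change was 2.49 ± 0.37 in the Host lines (adjusted p 3.75e-05) and 3.59 ± 0.41 in the DKO lines (adjusted p 2.06e-06). Slc7a5 was at 307, 292, 359 and 203 CPM in ESC Host, 515 and 568 in EpiLC Host, 279, 179 and 209 in PGC-ESC DKO and 593, 534 and 461 in EpiLC DKO. It rose by 0.77 ± 0.17 in the Host lines (adjusted p 0.0011) and 1.05 ± 0.16 in the DKO lines (adjusted p 4.55e-05), and every EpiLC library exceeded every other library. Its heavy chain Slc3a2 was at 254, 271, 259 and 177 CPM in ESC Host, 346 and 351 in EpiLC Host, 229, 168 and 224 in PGC-ESC DKO and 351, 324 and 342 in EpiLC DKO. Slc3a2 rose by 0.40 ± 0.12 in the Host lines (adjusted p 0.0129) and 0.52 ± 0.12 in the DKO lines (adjusted p 0.00168). The Host call of Slc3a2 was lost when EpiLC Host 3 or EpiLC Host 4 was left out and when only the compared groups were fitted.

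Other partners of the heavy chains behaved differently from one another. Slc7a8 (LAT2), which exchanges neutral amino acids, did not pass in either comparison, with changes of -0.88 ± 0.85 in the Host lines (adjusted p 0.421) and -0.29 ± 0.78 in the DKO lines (adjusted p 0.781). Slc7a10, the small neutral amino acid exchanger Asc-1, rose from at most 0.0618 CPM in ESC Host to 0.851 and 0.264 in EpiLC Host (3.53 ± 1.05, adjusted p 0.014) and was 34.4-fold higher (5.84 to 1389) by counts in the DKO lines, where EpiLC DKO 3 was at 0. It shares 17.86% of its exon length with Lrp3, and the Host call was lost without EpiLC Host 3, without ESC Host 1 and 2 and with DESeq2, and the DKO call without EpiLC DKO 1. Slc7a9, the cystine and dibasic amino acid light chain that pairs with the Slc3a1 heavy chain, fell in the Host lines (-1.68 ± 0.60, adjusted p 0.0295) and did not pass in the DKO lines (-1.26 ± 0.52, adjusted p 0.0533). Its Host call was lost without EpiLC Host 3, ESC Host 2 or ESC Host 4 and with only the compared groups fitted. Slc3a1 was at 0.249 CPM or less in every library and was not tested, nor was the Slc7a13 light chain, at 0.0361 or less.

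Cationic amino acid carriers of the CAT group, which work without a heavy chain, moved in several directions. Slc7a3 was at 69.6 to 172 CPM in ESC Host and 259 to 281 in EpiLC Host, and at 68.3 to 138 in PGC-ESC DKO and 216 to 248 in EpiLC DKO. It rose by 0.85 ± 0.26 in the Host lines (adjusted p 0.0127) and 1.02 ± 0.25 in the DKO lines (adjusted p 0.00305), and the Host call was lost without EpiLC Host 4. Slc7a1, the CAT1 arginine and lysine carrier, was at 192, 170.1, 150.2 and 83.1 CPM in ESC Host, 86.8 and 103 in EpiLC Host, 107, 75.7 and 100.3 in PGC-ESC DKO and 106, 96.3 and 71.8 in EpiLC DKO. It fell in the Host lines, -0.77 ± 0.21 (adjusted p 0.0059), although ESC Host 4 lay below the EpiLC Host libraries, and it did not pass in the DKO lines, -0.24 ± 0.19 (adjusted p 0.303). The Host call was lost without EpiLC Host 3, without ESC Host 1 and 2, and when each EpiLC library was matched to its own line (log2 fold change -0.48, adjusted p 0.0612). Slc7a2 (CAT2) did not pass in the Host lines (1.50 ± 0.65, adjusted p 0.0708) and rose in the DKO lines (2.51 ± 0.70, adjusted p 0.00694).

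The CAT-like genes Slc7a4 and Slc7a14 stayed low. Slc7a14, a lysosomal member, was at 0.0379, 0, 0.0309 and 0 CPM in ESC Host, 0.681 and 0.716 in EpiLC Host, 0, 0 and 0.0644 in PGC-ESC DKO and 0.839, 0.935 and 0.622 in EpiLC DKO. By summed counts it was 35.5-fold higher (9.13 to 305) in the Host lines and 51.5-fold higher (8.92 to 2067) in the DKO lines, with counting intervals in parentheses here and below (adjusted p 2.83e-05 and 5.22e-05 in the fit). Slc7a4, which shares 13.34% of its exon length with P2rx6, rose by 1.27 ± 0.44 in the Host lines (adjusted p 0.0266) and 2.03 ± 0.48 in the DKO lines (adjusted p 0.00204). The Host call of Slc7a4 was lost without EpiLC Host 3, ESC Host 3 or ESC Host 4 and with only the compared groups fitted.

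In the Slc43 family, which carries amino acids by facilitated diffusion, Slc43a2 (LAT4) was at 9.65, 15.2, 9.68 and 6.57 CPM in ESC Host, 34 and 30.9 in EpiLC Host, 6.67, 4.14 and 7.6 in PGC-ESC DKO and 36.4, 36 and 34.4 in EpiLC DKO. All EpiLC libraries were at or above 30.9 CPM and all others at or below 15.2. The change was 1.54 ± 0.24 in the Host lines (adjusted p 6.13e-05) and 2.34 ± 0.25 in the DKO lines (adjusted p 9.01e-07), and 9.18% of its exon length is shared with Gm45606. Slc43a1 (LAT3) did not pass, at 0.22 ± 0.49 in the Host lines (adjusted p 0.741) and 1.05 ± 0.48 in the DKO lines (adjusted p 0.0766). Slc43a3, a purine nucleobase carrier, did not pass in the Host lines (1.12 ± 0.68, adjusted p 0.192) and rose in the DKO lines (1.94 ± 0.70, adjusted p 0.0311). That call was lost with each library matched to its own line (log2 fold change 1.96, adjusted p 0.0541) and without EpiLC DKO 1, EpiLC DKO 2, PGC-ESC DKO 1 or PGC-ESC DKO 3.

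Glutamate carriers of the Slc1 family split. Slc1a3 (GLAST; chromosome 15, 8634124 to 8710764), which takes up glutamate with sodium, was at 3.1, 1.8, 7.36 and 1.29 CPM in ESC Host, 30.5 and 29.2 in EpiLC Host, 1.63, 2.1 and 1.74 in PGC-ESC DKO and 25, 20.4 and 20.3 in EpiLC DKO. The lowest EpiLC library was above 20 CPM and the highest of the other 15, ESC Host 3, was at 7.36. Slc1a3 rose by 2.98 ± 0.46 in the Host lines (adjusted p 4.99e-05) and 3.39 ± 0.50 in the DKO lines (adjusted p 3.16e-05). Slc1a1 (EAAC1), which takes up glutamate and cysteine, moved the other way and was at 29, 12.5, 3.34 and 4.82 CPM in ESC Host, 0.894 and 0.641 in EpiLC Host, 1.81, 1.47 and 4.25 in PGC-ESC DKO and 0.33, 0.524 and 0.249 in EpiLC DKO. Its change was -4.10 ± 0.80 in the Host lines (adjusted p 0.000452) and -2.90 ± 0.71 in the DKO lines (adjusted p 0.00281), with every EpiLC library below every other. The ESC Host values were spread widely, led by ESC Host 1, and 31.86% of the exon length of Slc1a1 lies in 4430402I18Rik.

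Slc1a6 (EAAT4) was at 0.265, 0.396, 0.186 and 0.249 CPM in ESC Host, 1.96 and 1.66 in EpiLC Host, 0.0308, 0 and 0.193 in PGC-ESC DKO and 1.89, 1.31 and 1.37 in EpiLC DKO. It rose by 2.59 ± 0.57 in the Host lines (adjusted p 0.0014) and 4.23 ± 0.74 in the DKO lines (adjusted p 0.000167), at levels under 2 CPM throughout. Slc1a2 (GLT-1), the main glial glutamate carrier of the brain, was at 0.0757 CPM or less in ESC Host and PGC-ESC DKO and at 0.34 to 0.746 in the EpiLC libraries. By counts it was 18.3-fold higher (4.38 to 162) in the Host lines and 16.4-fold higher (4.24 to 139.7) in the DKO lines. Slc1a7, a retinal glutamate carrier, did not pass and was 2.3-fold lower (0.641 to 12.5) by counts in the Host lines, and its 3 counts in PGC-ESC DKO and 2 in EpiLC DKO were too few for a fold. The neutral amino acid exchanger Slc1a4 (ASCT1) rose by 0.95 ± 0.26 in the Host lines (adjusted p 0.00676) and 1.44 ± 0.26 in the DKO lines (adjusted p 0.00021), with 18.4 to 41.5 CPM in the parent groups and 54.9 to 76.2 in the EpiLC libraries, and the Host call was lost without EpiLC Host 4. Slc1a5, its relative that carries glutamine, did not pass (Host lines -0.16 ± 0.17, adjusted p 0.447, and DKO lines 0.24 ± 0.16, adjusted p 0.226), and the 95% intervals of its change were -0.52 to 0.19 and -0.09 to 0.57.

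Of the Slc6 carriers, Slc6a15, Slc6a9 and Slc6a17 rose in both comparisons, whereas the proline importer Slc6a7, described below, fell. Slc6a15 (B0AT2), which takes up branched-chain amino acids and proline, was at 9.54, 8.76, 3.77 and 4.28 CPM in ESC Host, 28 and 23.3 in EpiLC Host, 6.37, 4.49 and 7.79 in PGC-ESC DKO and 27.8, 23 and 22.6 in EpiLC DKO. Every EpiLC library exceeded every other library, and the change was 1.85 ± 0.27 in the Host lines (adjusted p 2.93e-05) and 1.78 ± 0.27 in the DKO lines (adjusted p 4.52e-05). Slc6a9 (GlyT1), the glycine importer, was at 10.5, 6.29, 7.33 and 8.7 CPM in ESC Host, 20.3 and 26.5 in EpiLC Host, 6.95, 5.12 and 3.28 in PGC-ESC DKO and 32.8, 29.7 and 21.1 in EpiLC DKO. It rose by 1.36 ± 0.37 in the Host lines (adjusted p 0.00572) and 2.22 ± 0.38 in the DKO lines (adjusted p 0.000122), the ESC BaxHet line at 22.2 CPM and PGC-ESC BaxKO 1 at 20.9 lay within the EpiLC range, and the Host call was lost without EpiLC Host 4. Reads of Slc6a9 are uncertain because 30.25% of its exon length is shared with B4galt2, Ccdc24 and Gm17114. Slc6a17, a vesicular carrier of neutral amino acids, rose by 2.31 ± 0.59 in the Host lines (adjusted p 0.00397) and 2.45 ± 0.64 in the DKO lines (adjusted p 0.00458), and the EpiLC libraries were at 1.43 to 2.56 CPM.

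Slc6 neurotransmitter carriers were near 0 in the naive lines. Slc6a11 (GAT3), which takes up GABA, had 0 counts in ESC Host and in PGC-ESC DKO and was at 2.64 and 1.77 CPM in EpiLC Host and 2.82, 1.53 and 1.43 in EpiLC DKO. With 3 counts in a group as the floor, it was at least 73.8-fold higher and at least 43.1-fold higher (adjusted p 1.41e-05 and 5.59e-05 in the fit). The noradrenaline carrier Slc6a2 was 34.5-fold higher (5.41 to 1443) in EpiLC Host and at least 6.27-fold higher in EpiLC DKO, at 0.18 to 0.486 CPM. The serotonin carrier Slc6a4 passed in the Host lines, 10.2-fold higher (2.87 to 54.7) by counts (adjusted p 0.0384), a call lost without EpiLC Host 3, EpiLC Host 4, ESC Host 2, ESC Host 3 or ESC Host 4 and with DESeq2, and did not pass in the DKO lines (2.24 ± 1.02, adjusted p 0.0812). The dopamine carrier Slc6a3 (Host lines 0.33 ± 1.00, adjusted p 0.811, and DKO lines -2.05 ± 0.98, adjusted p 0.0932), the GABA carrier Slc6a13 (Host lines 1.34 ± 0.87, adjusted p 0.226, and DKO lines 1.96 ± 0.91, adjusted p 0.0835) and the orphan member Slc6a16 (Host lines 0.06 ± 0.72, adjusted p 0.958, and DKO lines 0.54 ± 0.74, adjusted p 0.572) did not pass.

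Slc38 carriers, of which systems A and N move glutamine, alanine and their relatives with sodium, went both ways: Slc38a1 and Slc38a3 rose in both comparisons, and Slc38a7, Slc38a8 and Slc38a10, described below, fell in both. Slc38a3 (SNAT3), a glutamine carrier of system N, was at 3.26, 2.99, 2.32 and 2.49 CPM in ESC Host, 18.4 and 16.1 in EpiLC Host, 1.26, 2.1 and 2.12 in PGC-ESC DKO and 13.9, 16 and 9.46 in EpiLC DKO. Every EpiLC library exceeded every other library, the change was 2.50 ± 0.36 in the Host lines (adjusted p 2.43e-05) and 2.66 ± 0.38 in the DKO lines (adjusted p 2.3e-05), and EpiLC DKO 3 was the lowest EpiLC library. Slc38a1 (SNAT1) rose by 0.51 ± 0.19 in the Host lines (adjusted p 0.038) and 0.94 ± 0.18 in the DKO lines (adjusted p 0.000428), with 85.7 to 143 CPM in ESC Host, 188 to 201 in EpiLC Host, 71.1 to 129 in PGC-ESC DKO and 176 to 221 in EpiLC DKO. The Host call of Slc38a1 was lost without any 1 of EpiLC Host 3, EpiLC Host 4, ESC Host 1 and ESC Host 4. It was also lost without ESC Host 1 and 2 and with only the compared groups fitted. Slc38a2 (SNAT2), the system A carrier known to respond to amino acid shortage, did not pass in the Host lines (0.54 ± 0.26, adjusted p 0.104) and rose in the DKO lines (1.24 ± 0.25, adjusted p 0.000666). The tested Slc38 members that passed in neither comparison were Slc38a4 (Host lines 0.01 ± 0.64, adjusted p 0.99, and DKO lines 0.59 ± 0.60, adjusted p 0.439), Slc38a5 (Host lines 0.01 ± 0.86, adjusted p 0.995, and DKO lines 2.50 ± 1.10, adjusted p 0.0708) and Slc38a6 (Host lines 0.33 ± 0.35, adjusted p 0.464, and DKO lines -0.20 ± 0.33, adjusted p 0.645).

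**Figure D3:**
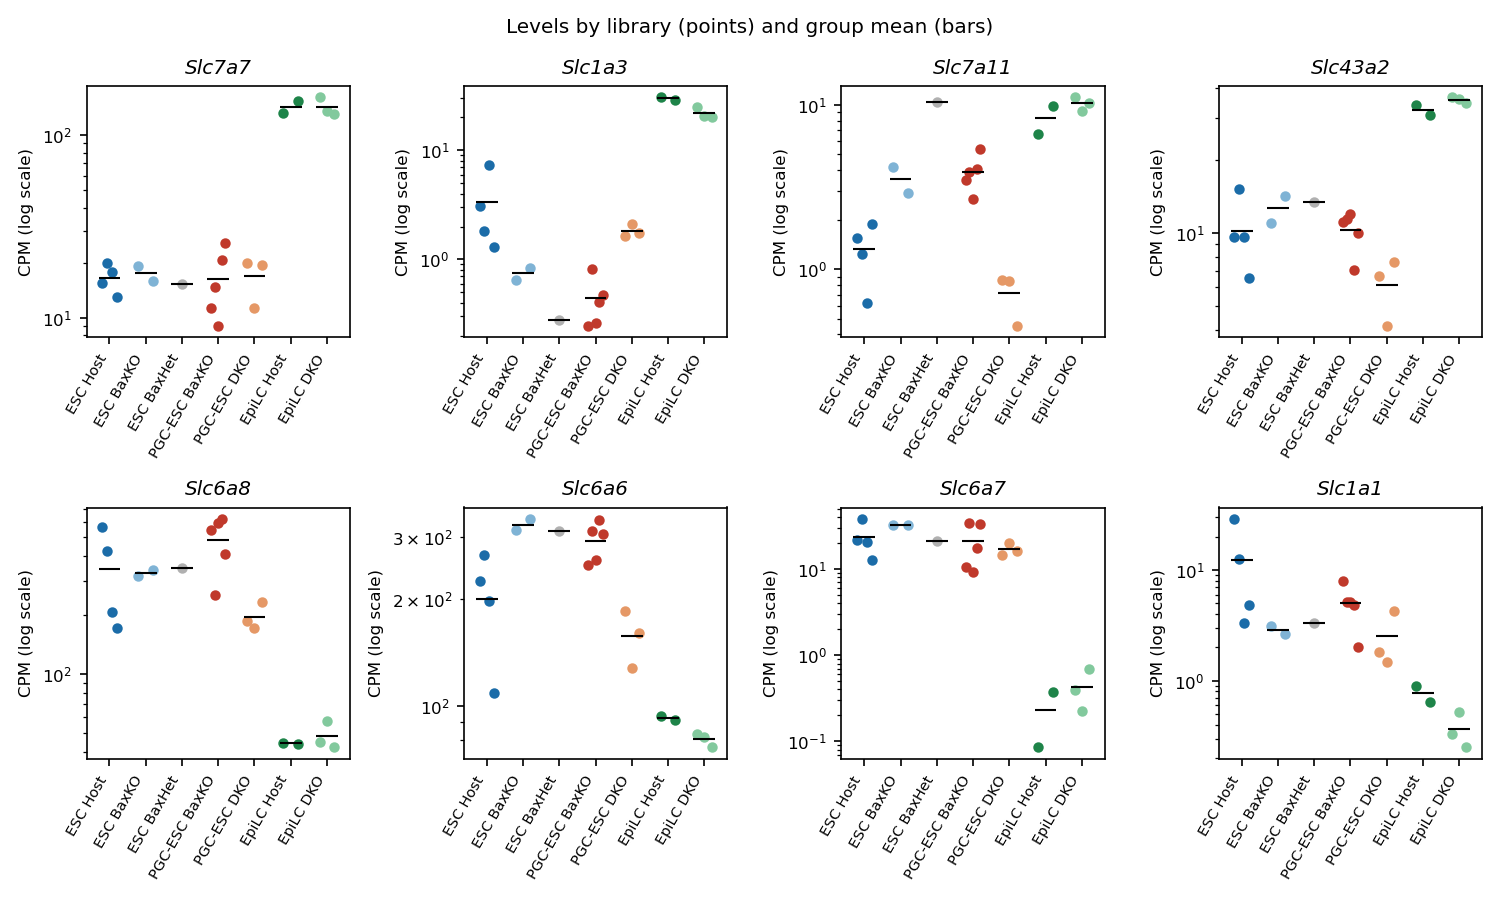
CPM of 8 transporter genes in each library on a log axis, by group, with a bar at the group mean. The EpiLC points of Slc7a7, Slc1a3, Slc7a11 and Slc43a2 lie above those of their parent groups, and those of Slc6a8, Slc6a6, Slc6a7 and Slc1a1 below.

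The genes that fell were led by Slc6 carriers of proline, creatine and taurine. Slc6a7 (chromosome 18, 60995380 to 61014222), a high-affinity proline importer known from brain, was at 21.7, 37.9, 20.2 and 12.7 CPM in ESC Host, 0.0851 and 0.377 in EpiLC Host, 14.5, 19.9 and 16 in PGC-ESC DKO and 0.389, 0.224 and 0.684 in EpiLC DKO. The 15 ESC and PGC-ESC libraries were all at 9.14 CPM or more and the 5 EpiLC libraries all at 0.684 or less. The change was -6.69 ± 0.78 in the Host lines (adjusted p 2.4e-06) and -5.56 ± 0.62 in the DKO lines (adjusted p 1.32e-06). The creatine importer Slc6a8 (chromosome X, 73673150 to 73682502) was at 565, 424, 208 and 172 CPM in ESC Host, 44.6 and 44 in EpiLC Host, 186, 171 and 233 in PGC-ESC DKO and 44.9, 57.4 and 42.1 in EpiLC DKO. Its change was -3.05 ± 0.40 in the Host lines (adjusted p 9.71e-06) and -2.23 ± 0.34 in the DKO lines (adjusted p 3.98e-05), with no overlap between EpiLC and other libraries. The taurine importer Slc6a6 (chromosome 6, 91684053 to 91759066) was at 225, 267, 197 and 109 CPM in ESC Host, 93.4 and 91 in EpiLC Host, 185, 128 and 160.3 in PGC-ESC DKO and 83.5, 81.5 and 76.3 in EpiLC DKO. Its change was -1.23 ± 0.21 in the Host lines (adjusted p 0.000167) and -1.17 ± 0.19 in the DKO lines (adjusted p 9.52e-05), and the highest EpiLC library lay below the lowest of the other libraries, ESC Host 4.

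The betaine and GABA carrier Slc6a12 was at 0.492, 0.792, 0.186 and 0.0497 CPM in ESC Host, 0.0426 and 0.0377 in EpiLC Host, 0.0615, 0.21 and 0.386 in PGC-ESC DKO and 0.12, 0.0748 and 0.0622 in EpiLC DKO. By counts it was 9.36-fold lower (2.42 to 80.05) in EpiLC Host (adjusted p 0.0184 in the fit), and it did not pass in the DKO lines (-1.29 ± 0.90, adjusted p 0.249). Its Host call was lost without EpiLC Host 3, without EpiLC Host 4, with only the compared groups fitted and with the same-line matching (log2 fold change -1.57, adjusted p 0.283).

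Lysosomal carriers did not share a direction. Slc38a7, which releases glutamine and asparagine from lysosomes, was at 62.3, 54.6, 50.8 and 29.99 CPM in ESC Host, 26.3 and 27.4 in EpiLC Host, 45.5, 39.2 and 45.4 in PGC-ESC DKO and 30.5, 28 and 26.6 in EpiLC DKO. The EpiLC libraries were all at or below 30.5 CPM, and ESC Host 4 was the only one of the other 15 within that range. The change was -1.003 ± 0.19 in the Host lines (adjusted p 0.000332) and -0.81 ± 0.17 in the DKO lines (adjusted p 0.00086). Slc36a1 (PAT1), a proton-coupled exporter of small amino acids from lysosomes, was at 31.8, 28.4, 21.4 and 11 CPM in ESC Host, 12.6 and 13 in EpiLC Host, 19.9, 11.6 and 18.7 in PGC-ESC DKO and 11.2, 10.8 and 10.6 in EpiLC DKO. Its change was -0.97 ± 0.27 in the Host lines (adjusted p 0.0073) and -0.82 ± 0.25 in the DKO lines (adjusted p 0.0113), although ESC Host 4 lay below the EpiLC Host libraries. The Host call of Slc36a1 was lost without EpiLC Host 3 or EpiLC Host 4, without ESC Host 1 and 2, and with only the compared groups fitted. It was also lost with the same-line matching (log2 fold change -0.51, adjusted p 0.0935). The DKO call of Slc36a1 was lost without PGC-ESC DKO 1.

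Slc38a9, the lysosomal arginine sensor of mTORC1, did not pass in the Host lines (0.22 ± 0.23, adjusted p 0.472) and rose in the DKO lines (0.92 ± 0.23, adjusted p 0.00304). Slc36a4 (PAT4), a high-affinity proline and tryptophan carrier, rose and was at 0.833, 0.924, 0.526 and 0.547 CPM in ESC Host, 4.13 and 4.64 in EpiLC Host, 0.615, 0.21 and 0.772 in PGC-ESC DKO and 4.43, 4.41 and 3.86 in EpiLC DKO. Its change was 2.50 ± 0.38 in the Host lines (adjusted p 4.63e-05) and 2.76 ± 0.41 in the DKO lines (adjusted p 3.11e-05), and every EpiLC library exceeded every other. Slc38a10, an intracellular member, was at 139, 131, 132 and 94.6 CPM in ESC Host, 83.6 and 90.4 in EpiLC Host, 122, 114 and 122 in PGC-ESC DKO and 87.7, 85.7 and 95.4 in EpiLC DKO. It fell by a small and even amount, -0.65 ± 0.11 in the Host lines (adjusted p 0.000167) and -0.61 ± 0.10 in the DKO lines (adjusted p 0.000127).

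The last of the falling genes were near the limit of counting. Slc38a8, a retinal glutamine carrier, was at 2.54, 0.264, 0.649 and 0.249 CPM in ESC Host, 0.0851 and 0 in EpiLC Host, 0.246, 1.26 and 0.322 in PGC-ESC DKO and 0.03, 0.0748 and 0.0622 in EpiLC DKO. By counts it was 24.4-fold lower (6.57 to 204) in EpiLC Host (adjusted p 0.00923 in the fit), and its change in the DKO lines was -3.54 ± 1.12 (adjusted p 0.0152). These calls were lost without EpiLC Host 4, EpiLC DKO 1 or PGC-ESC DKO 2. Slc36a3, a testis member of the proton-coupled family, was at 0.0757, 0.22, 0.0928 and 0.249 CPM in ESC Host, 0.0426 and 0 in EpiLC Host, 0.185, 0.351 and 0.129 in PGC-ESC DKO and 0, 0.0374 and 0 in EpiLC DKO. It was 7.39-fold lower (1.14 to 311) in EpiLC Host, which did not pass (adjusted p 0.0757), and 15.9-fold lower (2.39 to 676) in EpiLC DKO, which did (adjusted p 0.0113) but not without EpiLC DKO 1.

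The responses of the DKO and Host lines to conversion were then compared directly. For the difference between them, 0 of the 50 genes passed where 0.00611% of all genes did, with 2 genes at an unadjusted p under 0.05, Slc43a2 (0.80 ± 0.35) and Slc38a9 (0.70 ± 0.33), both at an adjusted p of 1. DESeq2 also gave 0. A gene that passed in only 1 set of lines, such as Slc7a1, Slc38a2 or Slc7a2, is therefore not shown to differ between them. Their differences, DKO minus Host, were 0.52 ± 0.28, 0.70 ± 0.37 and 1.01 ± 0.97. In EpiLC DKO against EpiLC Host, 0 genes passed where 0.0428% of all genes did, with 0 at an unadjusted p under 0.05 and 0 by DESeq2, and the median of the 50 genes was -0.03 against 0.01 for all genes. The intervals of this difference were narrow for Slc7a5 (-0.40 to 0.35) and Slc3a2 (-0.30 to 0.25) and wide for Slc6a7 (-1.09 to 2.64).

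Genes that work with these carriers were read in lists. Counts over the lists stand against 22.4% of all tested genes higher and 21.7% lower in the Host lines and 25.1% and 22.5% in the DKO lines. The naive markers fell in both comparisons, 8 of 8 tested, among them Tfcp2l1 (-7.13 and -6.53 in the Host and DKO lines), Esrrb (-4.77 and -4.39), Zfp42 (-2.61 and -2.38) and Tbx3 (-7.74 and -7.27). The core factors Pou5f1 (-1.21 and -1.09), Sox2 (-2.92 and -2.62) and Nanog (-2.59 and -3.13) fell too, 3 of 3. Of 5 formative markers 4 rose in the Host lines and 5 in the DKO lines, with Pou3f1 at 5.71 and 6.23, Fgf5 at 7.38 and 7.17, Dnmt3b at 2.90 and 2.82 and Sox3 at 4.70 and 4.38. The summed CPM of the naive markers was 2626 to 3758 in ESC Host and 88.8 to 101.9 in EpiLC Host, and 2750 to 3383 and 113 to 173 in the DKO groups.

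Markers of other cell types moved with the conversion as well, and their part in the transporter changes was not tested. The 4 neuroectoderm markers rose in both comparisons, Sox1 (5.10 and 3.91), Nes (3.05 and 2.61), Pax6 (2.77 and 1.85) and Neurod1 (1.36 and 2.00). Their summed CPM was 20.1 to 25.7 in ESC Host, 244 to 267 in EpiLC Host, 22.7 to 27.7 in PGC-ESC DKO and 174 to 222 in EpiLC DKO. Of 4 tested fibroblast and feeder markers 3 rose in both, Col1a2 (4.13 and 4.37), Thy1 (2.47 and 3.26) and Dcn, which was 236-fold higher (41.5 to 9384) and 74.4-fold higher (20.3 to 619) by counts, with summed CPM over the list of 2.23 to 6.25, 15.4 to 20.2, 2.18 to 4.76 and 17.3 to 22.8 in the same order of groups, and Postn was at 0 in all groups except EpiLC DKO. Of 6 primitive endoderm markers only Dab2 rose (3.68 and 3.66), and the summed CPM was 6.27 to 14.4, 19.5 to 30.6, 5.96 to 8.95 and 12.9 to 20.5. Of 5 tested trophoblast markers 1 rose and 2 fell in the Host lines and 1 rose and 3 fell in the DKO lines (Hand1 3.82 and 3.14, Eomes -0.96 and -1.50, Tfap2a -2.31 and -2.29, Cdx2 -2.20 and -2.61), the summed CPM was 17.9 to 53.4, 30.0 to 41.9, 21.5 to 46.9 and 35.7 to 41.3, and Elf5 was at 0 in EpiLC Host.

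Enzymes of the amino acids whose carriers moved did not move one way. Of 9 tested creatine and taurine genes, 1 rose and 6 fell in the Host lines and 2 rose and 5 fell in the DKO lines, with a median of -2.18 and -0.99. Ckb, brain-type creatine kinase, changed by -3.90 ± 0.25 and -4.23 ± 0.22 (adjusted p 3.03e-09 and 1.81e-10), whereas Gatm, the first enzyme of creatine synthesis, rose by 3.77 ± 0.44 and 5.82 ± 0.58 (adjusted p 2.51e-06 and 3.99e-07). Csad (-1.35 and -1.01) and Cdo1 (-2.24 and -2.35), enzymes of taurine synthesis from cysteine, fell in both (adjusted p 0.000204 and 0.000956 for Csad, 0.00197 and 0.000417 for Cdo1).

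Of 21 serine, glycine, threonine and one-carbon enzymes, 5 rose and 6 fell in the Host lines and 4 rose and 6 fell in the DKO lines, and the median was -0.01 in both. Tdh, threonine dehydrogenase, by which mouse ESCs break down threonine, changed by -7.002 ± 0.60 and -5.28 ± 0.46 (adjusted p 8.33e-08 and 9.15e-08). Gcat, the next step of that pathway (-0.95 and -1.14), Amt of the glycine cleavage system (-2.25 and -1.87) and the folate enzyme Aldh1l1 (-3.39 and -3.23) fell in both. Of 18 tested glutamine, glutamate, proline and arginine enzymes, 7 rose and 1 fell in the Host lines and 6 rose and 2 fell in the DKO lines (median 0.30 and 0.21). Bcat1, the cytosolic branched-chain aminotransferase, fell (-1.59 ± 0.21 and -1.46 ± 0.19), whereas the polyamine enzyme Odc1 was at 0.90 and 0.93 and the mitochondrial aspartate aminotransferase Got2 at 0.70 and 0.73 (adjusted p 0.000269, 0.000151, 0.00109 and 0.0005).

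Of 28 genes of the amino acid response run by ATF4, 7 rose and 5 fell in the Host lines and 8 rose and 2 fell in the DKO lines (median 0.08 and 0.15). These are shares of 25% and 17.9% in the Host lines, near the 22.4% and 21.7% of all genes, and 28.6% and 7.14% in the DKO lines, against 25.1% and 22.5%. Asns, asparagine synthetase and a standard target of that response, fell, with changes of -1.62 ± 0.21 and -1.96 ± 0.19 (adjusted p 7.67e-06 and 2.75e-07), whereas the ATF4 target Slc7a11 rose, as given above. Vldlr (2.30 and 2.87; adjusted p 0.000174 and 3.23e-05), Gdf15 (-2.61 and -1.82; adjusted p 9.27e-05 and 0.000508) and Stc2 (1.65 and 2.27; adjusted p 0.0058 and 0.000565) were the other members with the smallest adjusted p. Of 16 glutathione and NRF2 genes, 6 rose and 8 fell in the Host lines and 5 rose and 6 fell in the DKO lines (median -0.55 and -0.62). Gss, glutathione synthetase, was at -2.20 ± 0.22 and -2.51 ± 0.20, and Gclc, the catalytic subunit of the rate-limiting enzyme, at 1.11 ± 0.16 and 0.89 ± 0.15 (adjusted p 5.51e-07, 3.03e-08, 1.81e-05 and 0.000136). Keap1, which holds NRF2 in check, was at -1.10 and -1.35, and the peroxidase Gpx1 at -2.06 and -1.94 (adjusted p 4.35e-05, 1.64e-06, 2.67e-05 and 1.19e-05).

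Of 32 genes that sense amino acids upstream of mTORC1, 6 rose and 6 fell in the Host lines and 5 rose and 8 fell in the DKO lines (median -0.21 and -0.13). Castor2, a relative of the cytosolic arginine sensor Castor1, rose (2.49 ± 0.28 and 2.45 ± 0.29), and Flcn, a regulator of the Rag GTPases, was at -0.80 and -1.01, the mTOR complex subunit Mlst8 at -0.88 and -0.99 and the GATOR2 subunit Seh1l at 0.45 and 0.63 (adjusted p of Flcn 0.000428 and 1.98e-05, of Mlst8 0.000718 and 0.000111, and of Seh1l 0.00746 and 0.000435). Of 21 tested amino acid carriers of other families, 4 rose and 9 fell in the Host lines and 7 rose and 7 fell in the DKO lines (median -0.44 and -0.19). Mfsd12, the lysosomal cysteine importer, was at -3.18 ± 0.25 and -2.60 ± 0.22, the vesicular glutamate carrier Slc17a7 at 2.42 ± 0.29 and 4.11 ± 0.33, the aromatic amino acid carrier Slc16a10 at 3.62 ± 0.36 and 4.16 ± 0.41 and the mitochondrial aspartate-glutamate carrier Slc25a12 at -1.72 ± 0.20 and -1.54 ± 0.17. Mfsd12 and Slc25a12 fell and Slc17a7 and Slc16a10 rose in both, with a largest adjusted p of 2.99e-06.

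Comparisons of origin asked whether lines from primordial germ cells differ from ESCs. Between PGC-ESC BaxKO and ESC BaxKO, 0 of the 50 genes passed where 0.0367% of all genes did, with 10 at an unadjusted p under 0.05 and 1 by DESeq2, Slc1a4. This comparison is not of origin alone. Y-linked genes were at a mean of 0 to 53.5 CPM in PGC-ESC BaxKO and 47.0 to 61.1 in ESC BaxKO. X-linked expression relative to autosomes, described below, was at -0.21 to 0.77 and -0.25 to -0.16, and Rn45s at 2044 to 5106 and 3263 to 18387 CPM. Slc1a4 stood at 72.3, 46.4, 49.7, 57.8 and 38.5 CPM in PGC-ESC BaxKO, against 29 and 14.9 in ESC BaxKO, a difference of 1.25 ± 0.28 (adjusted p 0.249). Between PGC-ESC DKO and ESC Host, where genotype and the EGFP reporter differ together with origin, 0 genes passed where 0.116% of all genes did, with 9 at an unadjusted p under 0.05 and 2 by DESeq2, Slc1a1 and Slc38a9. Slc38a9 was at 6.78, 6.42, 4.27 and 3.38 CPM in ESC Host and 2.95, 2.31 and 3.28 in PGC-ESC DKO, without overlap (-0.78 ± 0.22, adjusted p 0.299). The lowest adjusted p, 0.295, was that of Slc1a1 (-2.21 ± 0.60). The median of the 50 genes was 0.33 in the first comparison against -0.00 for all genes, and -0.38 in the second against -0.05.

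ESC BaxKO and ESC Host differ together in Bax, strain label, EGFP, derivation (earlier for ESC BaxKO) and Y-linked expression. Y-linked genes were at a mean of 61.1 and 47.0 CPM in ESC BaxKO and at 0 to 3.84 in ESC Host. The 2 groups differed in 1 of the 50 genes where 5.02% of all genes passed, 2.26% lower. The median of the 50 genes was -0.13 against -0.05 for all genes, and 13 of them were at an unadjusted p under 0.05. Slc1a3 stood at 0.65 and 0.842 CPM in the ESC BaxKO lines, against 3.1, 1.8, 7.36 and 1.29 in ESC Host, and was lower in ESC BaxKO (-2.27 ± 0.58, adjusted p 0.0318). The 2 groups did not overlap, but the call was lost without ESC BaxKO 1, ESC BaxKO 2 or ESC Host 3. It was also lost with only the compared groups fitted and with the replicate number as a block. DESeq2 called 8 genes here, Slc1a1, Slc1a3, Slc38a4, Slc38a5, Slc38a10, Slc43a3, Slc6a6 and Slc7a11.

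The comparison of PGC-ESC BaxKO with PGC-ESC DKO gave most of the calls outside the EpiLCs. It found 14 of the 50 genes, 13 higher in PGC-ESC BaxKO and 1 lower, where 23.6% of all genes passed, 12.2% higher and 11.4% lower. The median of the 50 genes was 0.61 against 0.02 for all genes. Genotype, strain label, EGFP level and Rn45s level (2044 to 5106 CPM against 24395 to 45205) differ between the 2 groups together and cannot be told apart. X-linked expression relative to autosomes, described below, differed as well, at -0.21 to 0.77 in PGC-ESC BaxKO and -0.31 to -0.26 in PGC-ESC DKO. Without Rn45s in the table, the same count of 14 was found. That fit drops only the counts of Rn45s itself, so whether its level bears on the other genes was not tested. Summed over the 59 genes, PGC-ESC BaxKO libraries were at 2887 to 3408 CPM and PGC-ESC DKO libraries at 1525 to 2098.

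The arginine carrier Slc7a1 stood at 269, 296, 279.7, 296 and 233 CPM in the PGC-ESC BaxKO lines, against 107, 75.7 and 100.3 in PGC-ESC DKO. It was higher in PGC-ESC BaxKO by 1.38 ± 0.18 (adjusted p 0.000116), with the lowest PGC-ESC BaxKO library far above the highest PGC-ESC DKO library. The cystine carrier Slc7a11 was at 3.5, 3.88, 2.67, 4.08 and 5.4 CPM against 0.861, 0.842 and 0.451, higher by 2.25 ± 0.38 (adjusted p 0.00111). Slc7a3 was at 267, 182, 263, 307 and 197 against 138, 68.3 and 90.4 (1.13 ± 0.23, adjusted p 0.0036). These 3 carriers did not overlap between the groups, and PGC-ESC DKO 2 was the lowest library for Slc7a1 and Slc7a3. Slc1a4 was at 72.3, 46.4, 49.7, 57.8 and 38.5 against 25, 18.4 and 20.3 (1.14 ± 0.24, adjusted p 0.00371).

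The lysosomal sensor Slc38a9 stood at 5.58, 6.27, 5.85, 7.51 and 6.27 CPM in the PGC-ESC BaxKO lines against 2.95, 2.31 and 3.28 in PGC-ESC DKO, higher by 0.98 ± 0.21 (adjusted p 0.0043). The lysosomal glutamine carrier Slc38a7 was at 86.6, 84.7, 86.3, 86.1 and 56.8 against 45.5, 39.2 and 45.4, higher by 0.72 ± 0.16 (adjusted p 0.00465), and PGC-ESC BaxKO 5 was the lowest of its group. Neither gene overlapped between the groups. The other genes higher in PGC-ESC BaxKO were Slc6a9, Slc6a6, Slc7a5, Slc6a8, Slc36a1, Slc1a5 and Slc6a16, with log2 fold changes from 0.44 to 1.97. Slc1a3 was lower, at 0.245, 0.825, 0.261, 0.404 and 0.476 CPM against 1.63, 2.1 and 1.74 (-2.11 ± 0.47, adjusted p 0.00583). The groups overlapped for Slc6a16.

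Single libraries carried part of these calls. Without PGC-ESC DKO 2, 9 genes passed, and the calls of Slc6a6, Slc7a5, Slc6a8, Slc36a1 and Slc6a16 were lost. Without PGC-ESC BaxKO 1, 3 and 4, the libraries with high X-linked expression described next, 7 passed: Slc38a9, Slc6a6, Slc7a1, Slc7a11 and Slc7a5 were higher and Slc38a4 and Slc7a8 lower. In that fit the calls of Slc7a3, Slc1a4, Slc38a7, Slc1a3, Slc6a9, Slc6a8, Slc36a1, Slc1a5 and Slc6a16 were lost. The call of Slc1a5 was lost without PGC-ESC BaxKO 2, PGC-ESC BaxKO 4 or PGC-ESC DKO 3, and that of Slc6a16 also without PGC-ESC BaxKO 1, PGC-ESC BaxKO 3, PGC-ESC BaxKO 4, PGC-ESC DKO 1 or PGC-ESC DKO 3. The calls of Slc1a5 and Slc6a16 were also lost with only the compared groups fitted. Slc38a9, Slc7a1 and Slc7a11 passed in every alternative fit.

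**Figure D4:**
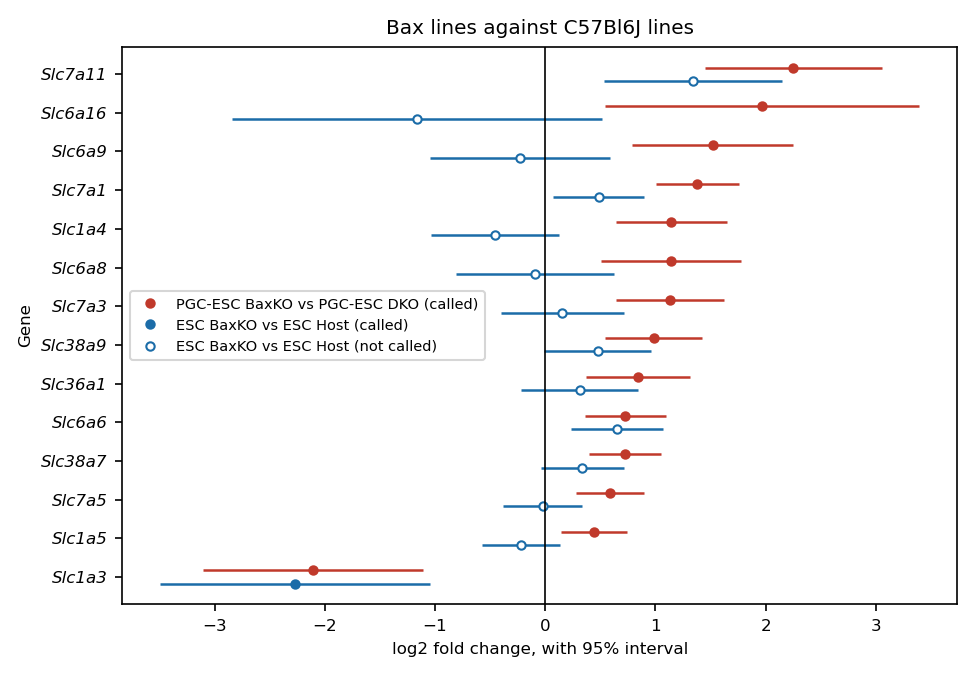
Log2 fold changes with 95% intervals of the 14 genes that differed between PGC-ESC BaxKO and PGC-ESC DKO, with the same genes in ESC BaxKO against ESC Host. All but Slc1a3 lie above 0 in the first comparison, and Slc1a3 lies below 0 in both.

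Lists read in that comparison stand against 12.2% of all tested genes higher and 11.4% lower. Of 28 genes of the ATF4 response 5 were higher and 0 lower, of 21 other amino acid carriers 5 and 0, of 18 glutamine to arginine enzymes 2 and 4, of 21 serine to one-carbon enzymes 1 and 1, of 32 sensing genes 4 and 4, of 16 glutathione genes 1 and 5, and of 9 creatine and taurine genes 2 and 2. Among markers, 1 of 8 naive and 1 of 5 formative were higher, 1 of 3 core and 1 of 5 trophoblast lower, 1 of 4 neuroectoderm higher and 2 lower, and 0 of 6 primitive endoderm and 0 of 4 fibroblast and feeder markers passed.

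Some carriers varied widely among the PGC-ESC BaxKO lines. Median X-linked expression, as log2(CPM + 0.5) relative to autosomes, reached 0.77, 0.74 and 0.70 in lines 1, 3 and 4 of PGC-ESC BaxKO, against -0.17 and -0.21 in lines 2 and 5, where Y-linked genes were counted at a mean of 53.5 and 53.0 CPM. The ESC BaxHet line was at 0.26 and the other ESC and PGC-ESC libraries between -0.36 and 0.04. Of the X-linked carriers, Slc6a8 stood at 547, 254, 591, 621 and 409 CPM in lines 1 to 5 of PGC-ESC BaxKO and Slc7a3 at 267, 182, 263, 307 and 197, and both were highest in libraries 1, 3 and 4. Slc38a5, another X-linked carrier, was at 0.552, 0.0306, 0.418, 0.444 and 0.0865 CPM, again higher in libraries 1, 3 and 4. The last, Slc6a14 (ATB0,+), was at 0.0432 CPM or less in this group.

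Some autosomal carriers also differed between these lines, in both directions, and those given here were chosen after their values were seen. Slc7a8 stood at 24, 1.19, 25.7, 18.9 and 3.24 CPM in lines 1 to 5 of PGC-ESC BaxKO, and Slc38a4, a system A carrier expressed from the paternal allele in mouse, at 175, 25.9, 113, 81 and 11.7. Slc43a3 was at 12, 1.16, 9.3, 3.91 and 1.17 and Slc6a16 at 4.11, 0.703, 3.24, 1.65 and 0.389. For each of these 4 genes the libraries 1, 3 and 4 were above the libraries 2 and 5. The order was the opposite for Slc6a7, at 10.6, 33.7, 9.14, 17.2 and 33.5 CPM, Slc38a2, at 184, 291, 171, 201 and 284, and Slc38a6, at 4.85, 12, 7.21, 5.57 and 10.9. Slc38a4 was also low in ESC BaxKO, at 19.9 and 37.4 CPM against 157, 154, 217 and 78.5 in ESC Host (-2.46 ± 0.73, adjusted p 0.0604). Summed fibroblast and feeder markers also differed between the PGC-ESC BaxKO lines, at 15.6, 1.71, 8.83, 8.47 and 2.03 CPM in lines 1 to 5. Whether X dosage or other differences between these lines bear on the carrier levels was not tested. Libraries 1, 3 and 4 were set apart by X-linked expression, not by the carriers.

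**Figure D5:**
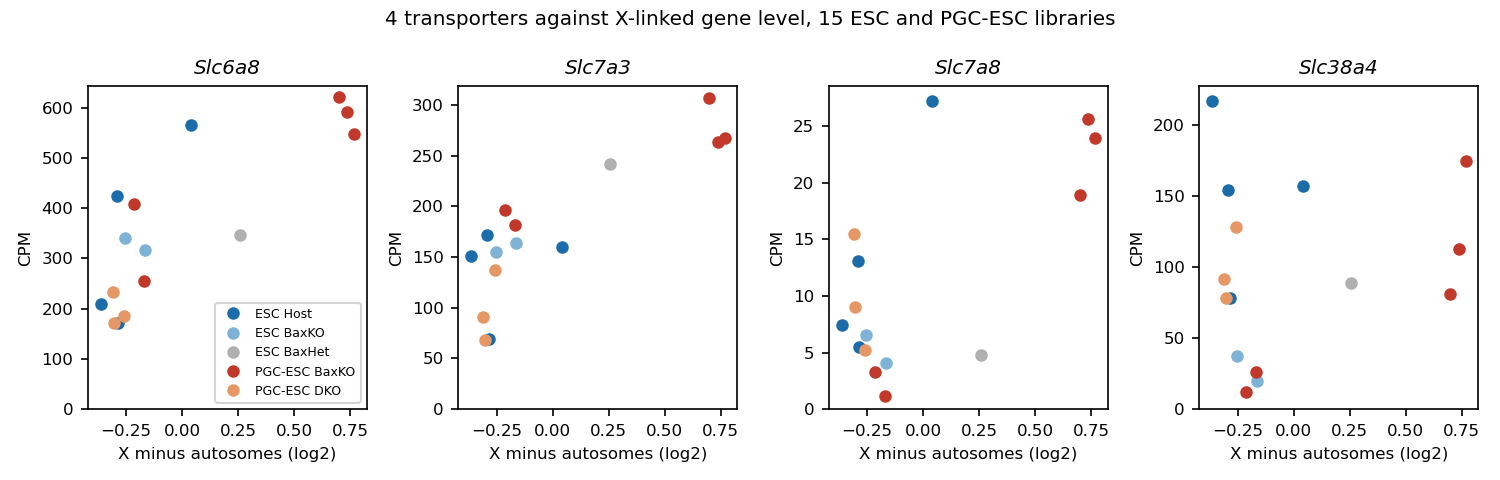
CPM of Slc6a8, Slc7a3, Slc7a8 and Slc38a4 in the 15 ESC and PGC-ESC libraries against median X-linked minus autosomal log2 expression. The 3 PGC-ESC BaxKO points on the right, at 0.70 or above, are libraries 1, 3 and 4.

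The 9 genes that were not tested are Slc3a1, Slc6a5 (GlyT2), Slc6a14, Slc6a19 (B0AT1), Slc6a21, Slc7a13, Slc7a15, Slc36a2 and Slc38a11, and their highest value in any library was between 0.0361 and 0.412 CPM. Slc6a19, the neutral amino acid carrier of kidney and gut, had 0.0622 to 0.339 CPM in the EpiLC libraries and was at 0 in all but 1 of the other 15, ESC Host 2. By summed counts it was 28.4-fold higher (4.33 to 1202) in EpiLC Host and at least 2.73-fold higher in EpiLC DKO, where the second value is against a floor of 3 counts. Slc6a14 was 7.77-fold higher (1.88 to 68.8) by counts in EpiLC DKO, where EpiLC DKO 3 was at 0. Other untested genes were lower by counts in EpiLC Host, Slc36a2 by 7.88-fold (1.22 to 330) and Slc6a5 by 5.42-fold (0.787 to 233). Slc6a21 was at 0 in every EpiLC library. Floors and counting intervals cover counting error only.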

How the data were processed

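Poly(A) RNA of 20 mouse libraries in 7 groups was measured. The authors deposited 1 table of whole-number read counts per gene, with 21361 genes and 0 columns of other samples. STAR 2.7.7a and build mm10 are named per the submitters' processing notes, whereas the counting tool, its strand setting and the annotation are not stated. Groups come from the sample labels.

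The test was run on the counts in edgeR 4.0.16 (R 4.3.3, TMM scaling, filterByExpr, quasi-likelihood F test, 1 coefficient per group over all 20 libraries, 13 residual degrees of freedom), two-sided, with Benjamini-Hochberg adjustment over 16363 genes and a threshold of 0.05. In all, 8 comparisons were made. Values by library are CPM of the library total, and levels between genes are per kilobase of merged GENCODE exons. The standard error is the fold change over the square root of F. Genes with 3 counts or fewer in a group are given as count ratios with an exact 95% interval, or as bounds against 3 counts. The code was tested on simulated data.

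The members and the gene lists were chosen with earlier results of these data known. Named are every transporter that passed in a comparison, up to 12 per direction with each library's value in the EpiLC comparisons and up to 6 in each other one, the heavy chains and their light chains, X-linked carriers, the 5 most abundant per length, and up to 4 per list. The values of 1 transporter and 1 listed enzyme are not reported here, but both enter the fits and counts. The lists cover ATF4 response, serine to one-carbon enzymes, glutamine to arginine enzymes, mTORC1 sensing, glutathione, creatine and taurine, other carriers, and markers of naive, core and formative pluripotency, primitive endoderm, trophoblast, neuroectoderm and fibroblasts.

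EpiLC libraries share a line with their parents per the labels, and their deviations from the group means correlated at 0.11 and 0.17 for Host lines 3 and 4 and at 0.11, 0.12 and 0.093 for DKO lines 1, 2 and 3. Different lines gave larger values of either sign, such as 0.41 for PGC-ESC DKO 2 and -0.31 for PGC-ESC DKO 3, each with ESC Host 4. The deviations of EpiLC Host 3 and 4 mirror each other, so these correlations do not test the pairing. Alternatives were another scaling, no filter, DESeq2 1.42.0, only the compared groups, the line or number as a block, and leaving out Rn45s, single libraries or sets of libraries.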

Additional observations from a re-analysis of the deposited data

Results flagged for a closer look

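In groups of 4 or 5 libraries, 62 gene and group values were examined for a library far from the others, and 5 stood apart, where chance alone gives about 1 in 20. Slc38a1 was at 85.7 CPM in ESC Host 4, against 135 to 143 in the other 3 lines. Slc7a6 was at 16.3 CPM in the same library, against 30.7 to 33.4. In ESC Host 1, Slc38a5 was at 2.54 CPM against 0.176 to 0.557 and Slc43a3 at 8.59 against 2.64 to 3.37. Slc38a7 was at 56.8 CPM in PGC-ESC BaxKO 5, against 84.7 to 86.6 in the other 4 lines.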

How the results depend on the processing

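Counting each called gene once per comparison and alternative, 1051 such pairs kept direction and call, 84 lost the call, and 0 reversed. The EpiLC Host count of 35 ran from 25 to 36, with 25 when only the compared groups were fitted, and the EpiLC DKO count of 36 from 33 to 39. Leaving out EpiLC Host 3 or EpiLC Host 4 also lost Host calls, and it leaves 1 library in that group. Calls held in every alternative that tested the gene (5 genes in each EpiLC comparison were filtered out in 1 alternative) for 20 of 35, 31 of 36, 0 of 1 (ESC BaxKO against ESC Host) and 3 of 14 genes (PGC-ESC BaxKO against PGC-ESC DKO). With the cell line as a replicate block, 32 (24 higher, 8 lower) and 35 genes passed in the EpiLC comparisons, and beyond the calls named above the block ended 1 other. In the other comparisons the replicates share only a number, so that block pairs unrelated lines. For PGC-ESC BaxKO against ESC BaxKO, 1 gene passed with DESeq2 and 1 with the number as a block, against 0. For PGC-ESC DKO against ESC Host, 2 passed with DESeq2, and 0 to 1 when single libraries were left out, the 1 (Slc7a1) without ESC Host 4. For ESC BaxKO against ESC Host, where 1 passed, 2 passed without the filter, 8 with DESeq2, 2 with the number as a block, and 0 to 3 when single libraries were left out (0 without either ESC BaxKO line, 2 without ESC Host 4, 3 without ESC Host 2). For PGC-ESC BaxKO against PGC-ESC DKO, where 14 passed, 7 passed without PGC-ESC BaxKO 1, 3 and 4, an alternative chosen after seeing the data, 18 with the number as a block, and 9 to 15 when single libraries were left out (9 without PGC-ESC DKO 2). The cause was not tested. Where a group keeps 1 library, it is assumed to vary like the others. Genes under about 1 CPM rest on few counts.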
